A study of Mus musculus with 36 samples.

Results

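The comparison described here set 3 olfactory bulb libraries of sex-combined female mice (OB-CF1 to OB-CF3) against 3 of sex-combined male mice (OB-CM1 to OB-CM3), 6 of the 36 RNA-seq libraries of the series. The 6 libraries were defined by their labels, but the comparison and the gene lists were chosen with earlier results of these data known. All mice were C57BL/6, were weaned at 3 weeks and were 6 months old when the olfactory bulb (OB), the main olfactory epithelium (MOE) and the vomeronasal organ (VNO) were taken. CF and CM mice shared mixed cages of females and males from weaning on, and pups born there were removed within a day. The 3 bulb libraries each of sex-separated females (SF) and males (SM), which lived only with their own sex, are used to show where the CF against CM difference depended on housing. No transgene or drug was involved. Each library was made from ribosome-depleted total RNA pooled from several mice, so a replicate is a pool. CF females could mate and bear litters and SF females could not, so breeding and the company of males cannot be told apart.

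The bulb is the first brain station for smell. Axons of olfactory sensory neurons end in its glomeruli, where they contact mitral and tufted cells, the projection neurons. Periglomerular cells, some of them dopaminergic, and granule cells inhibit these neurons, and both kinds are renewed in adult life by neuroblasts that migrate into the bulb. Olfactory ensheathing glia wrap the incoming axons. Expression of the dopamine-synthesizing enzyme in the bulb is known to follow input from the nose.

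The authors gave expression as FPKM, a fragment count set relative to transcript length and to library size. Values were summed by gene symbol and compared after a log2(FPKM + 0.5) transformation, in which differences of weakly expressed genes come out too small, and all differences below are CF minus CM on this scale unless said otherwise. Of 24631 genes, 12795 had a mean of at least 0.5 FPKM over the 12 bulb libraries and were tested, 12324 of them autosomal. Fragments estimated from the confidence limits of the values summed to 3250825 to 6007192 per library. These sums lie below the aligned pairs that the paper gives for each library and are not the sequencing depth. Bulb markers were as labelled: Gad1, which makes GABA, was at 155 to 208 FPKM in the 12 bulb libraries against at most 2.09 in VNO and 0.641 in MOE, and Tbx21, a transcription factor of mitral and tufted cells, was at 4.34 to 5.2 FPKM against at most 0.13 in the other tissues. The sex labels held. Xist, the RNA of the inactive X chromosome, was at 13.2, 13.4 and 14.9 FPKM in CF1 to CF3 and at most 0.0313 FPKM in CM, and Ddx3y, a Y-linked helicase, was at 12.6, 12.6 and 15.7 FPKM in CM1 to CM3 and at most 0.0209 FPKM in CF. CF3 stood apart in Mir6236, which was at 100600 FPKM there against 30400 and 35780 FPKM in CF1 and CF2 and 31670 to 59320 FPKM in CM. SF3 had a like value, 98430 FPKM. Among CF and CM libraries, the paper gives CF3 the lowest shares of aligned reads and concordant pairs and the shortest mean insert. CF3 also had the fewest estimated fragments of them, 4270624.

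Autosomal genes hardly differed between CF and CM in the test across all genes. With limma and Benjamini-Hochberg adjustment, 1 of 12324 autosomal genes (0.00811%) passed an adjusted p of 0.05 and 696 (5.65%) were under an unadjusted p of 0.05. Between SF and SM 0 passed (0%) and 558 (4.53%) were under that unadjusted p, 45 higher (0.365%) and 513 lower (4.16%) in females. Among the 451 genes of the X and Y chromosomes 5 passed between CF and CM (1.11%), namely Xist and the Y-linked Ddx3y, Uty, Kdm5d and Eif2s3y. At an unadjusted p under 0.05, 152 autosomal genes were higher in CF (1.23%) and 544 were lower (4.41%), and the 3 CF and 3 CM values did not overlap for 362 genes that were higher in CF (2.94%) and 893 that were lower (7.25%). The median difference over all autosomal genes was -0.03, and 59.7% of the genes were lower in CF.

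This excess of lower genes depended on how the libraries were scaled. The split was 644 higher against 814 lower after upper quartile scaling, 846 against 730 after quantile normalization, and 621 (5.15%) against 772 (6.4%) of 12067 genes after a correction for transcript GC content and length. It also rested on single libraries: without CM3, 421 were higher and 281 lower, and without CF2, 138 were higher and 1209 lower. No direction can therefore be read from the number of genes as a whole. In simulated libraries 96.5% of 200 genes that differed by 1 log2 unit were recovered and 38.5% of 200 that differed by 0.5, so differences of 0.5 or less would often be missed at this size. The simulation drew the noise of each gene independently, capped the largest spreads and left out genes listed at 0 in any bulb library. It therefore does not cover shifts that many genes share or genes listed at 0.

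**Figure D1:**
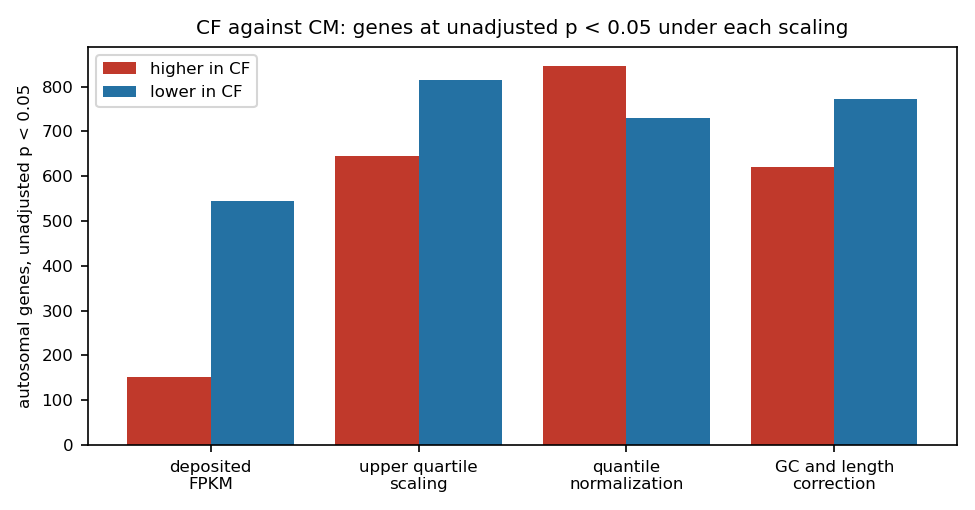
Bars give the number of autosomal genes under an unadjusted p of 0.05 in CF against CM (y axis, genes), higher (red) or lower (blue) in CF, for the deposited FPKM and 3 other scalings of the same libraries. With the deposited values 544 genes were lower and 152 higher in CF, and after quantile normalization 730 were lower and 846 higher.

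The autosomal gene that passed was Mir6516, a microRNA locus at chr11:116938662-116938771 (mm9) inside the locus of the noncoding gene Snhg20. Both mature arms are shown because this gene carries the call. They are RefSeq sequences (GRCm38.p6), with the seed, bases 2 to 8, in capitals.
mmu-miR-6516-5p: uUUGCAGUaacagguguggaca
mmu-miR-6516-3p: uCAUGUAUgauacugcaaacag
Mir6516 was listed at 0 FPKM in CF1, CF2 and CF3 and at 166, 116 and 86.3 FPKM in CM1, CM2 and CM3 (limma, adjusted p = 5e-07). SF libraries had 43.4, 59.3 and 69.97 FPKM and SM libraries 122, 126 and 26.4 FPKM, so that CF was the only group of the 4 at 0. At most 7 fragments per library stood behind these values, in a library type that was not made to capture mature microRNAs. Snhg20 was at 6.82, 6.94 and 9.17 FPKM in CF1 to CF3 and 12.8, 10.9 and 12.1 FPKM in CM1 to CM3, also lower in CF without overlap, with a difference of -0.62 ± 0.19 (SE, n = 3 per group, limma adjusted p = 0.703).

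A listing at 0 in all CF libraries and above 0 in all CM libraries was found in 5 autosomal genes, and the reverse in 0. Besides Mir6516 these were Fbxl15, an F-box protein (6.04, 6.003 and 8.57 FPKM in CM), Ankrd37, an ankyrin repeat protein (3.16, 3.18 and 3.84 FPKM), Egfl8, an EGF-like protein (3.49, 2.19 and 2.93 FPKM), and Nfkbil1 (3.64, 4.53 and 4.03 FPKM). Each was also at 0 in some SF or SM libraries, and each overlaps the locus of another gene. Nfkbil1 overlaps Atp6v1g2, a subunit of the vacuolar proton pump, which was at 30.8, 31.6 and 25.7 FPKM in CF and 17.4, 20.4 and 22.4 FPKM in CM. In the other housing SF3 had 0 FPKM of Nfkbil1 with 22.2 FPKM of Atp6v1g2, and SM3 had 3.89 FPKM of Nfkbil1 with 27.4 FPKM of Atp6v1g2. Egfl8 overlaps Agpat1, which was at 14.7, 13.95 and 12.6 FPKM in CF and 11.1, 11.6 and 13.5 FPKM in CM. In SF2 and SM2, where Egfl8 was above 0, Agpat1 was at 12.5 and 12.2 FPKM. The other SF and SM libraries, with Egfl8 at 0, had 12.85 to 15.99 FPKM of Agpat1. Fbxl15 overlaps Cuedc2, which was at 19.1 to 22.2 FPKM in CF and 19.1 to 20.7 FPKM in CM and overlapped between the groups. A 0 in such a pair can be a failed estimate, and whether fragments were assigned to the overlapping gene was not tested.

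Among genes above 0 in all 12 libraries, Cebpb had the smallest p for a difference between the sexes averaged over the housings. The gene, at chr2:167514415-167515932 (mm9), encodes a transcription factor of the C/EBP family that acts in inflammation and metabolism. It was at 1.71, 2.52 and 1.73 FPKM in CF1 to CF3 and 3.58, 3.11 and 2.99 FPKM in CM1 to CM3. SF libraries had 2.61, 1.98 and 2.14 FPKM and SM libraries 3.82, 3.404 and 4.07 FPKM, so all 6 female libraries were below all 6 male libraries. The difference was -0.60 ± 0.13 (SE, n = 3 per group, limma adjusted p = 0.471) for CF against CM and -0.64 ± 0.13 (limma adjusted p = 0.486) for SF against SM. Averaged over the housings it was -0.62 ± 0.09 (SE, n = 6 per sex, limma adjusted p = 0.0319). The average called 3 autosomal genes (0.0243%), Cebpb, Mir6516 and Fbxl15, with 801 (6.5%) under an unadjusted p of 0.05, 44 higher (0.357%) and 757 lower (6.14%) in females. For Cebpb the call was lost with no filter (limma adjusted p = 0.134), after upper quartile scaling (0.221), quantile normalization (0.226) and GC and length correction (0.248), with the share of concordant read pairs as a covariate (0.0941), and when any of 10 of the 12 libraries was left out (adjusted p of 0.0654 to 0.139). Fbxl15 was not called under these 5 settings either (limma adjusted p of 0.0578 to 0.181). With the replicate number as a block neither Cebpb nor Fbxl15 was called. Between 14.7 and 52.7 fragments per library stood behind the Cebpb values. In MOE, where Cebpb was at 10.03 to 19.2 FPKM, the same average was -0.01 ± 0.15, and in VNO it was -0.14 ± 0.15 (limma adjusted p = 0.913).

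The 250 bases before the RefSeq start of Cebpb (GRCm38.p6, chr2:167688665-167688914, plus strand) are shown because this gene was called in the average over the housings. The GC and length correction used the transcript alone, and whether promoter composition bears on the value was not tested. The transcript is 67.2% G and C against a median of 50.5% over the autosomal genes tested, and the bases shown are 81.6% G and C against a median of 52.4% over 32851 RefSeq promoters. Capitals mark TGACG, the core of the cAMP response element, on either strand (CGTCA on the strand shown).
Cebpb promoter: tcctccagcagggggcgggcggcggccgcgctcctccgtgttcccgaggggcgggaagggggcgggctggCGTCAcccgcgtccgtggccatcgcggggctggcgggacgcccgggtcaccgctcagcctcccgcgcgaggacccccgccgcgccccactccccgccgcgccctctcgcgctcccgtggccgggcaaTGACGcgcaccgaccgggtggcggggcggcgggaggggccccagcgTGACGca
The window held 3 matches. At least 1 match was present in 17.8% of all promoters of the same length and at least 3 in 0.384%. These promoters were not matched to the window for G and C content, so the shares do not show that 3 matches are unusual for such a window. A match is a description of the letters, not a bound site. After correction for transcript GC content and length the CF minus CM difference of Cebpb was -0.36 in place of -0.60.

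**Figure D2:**
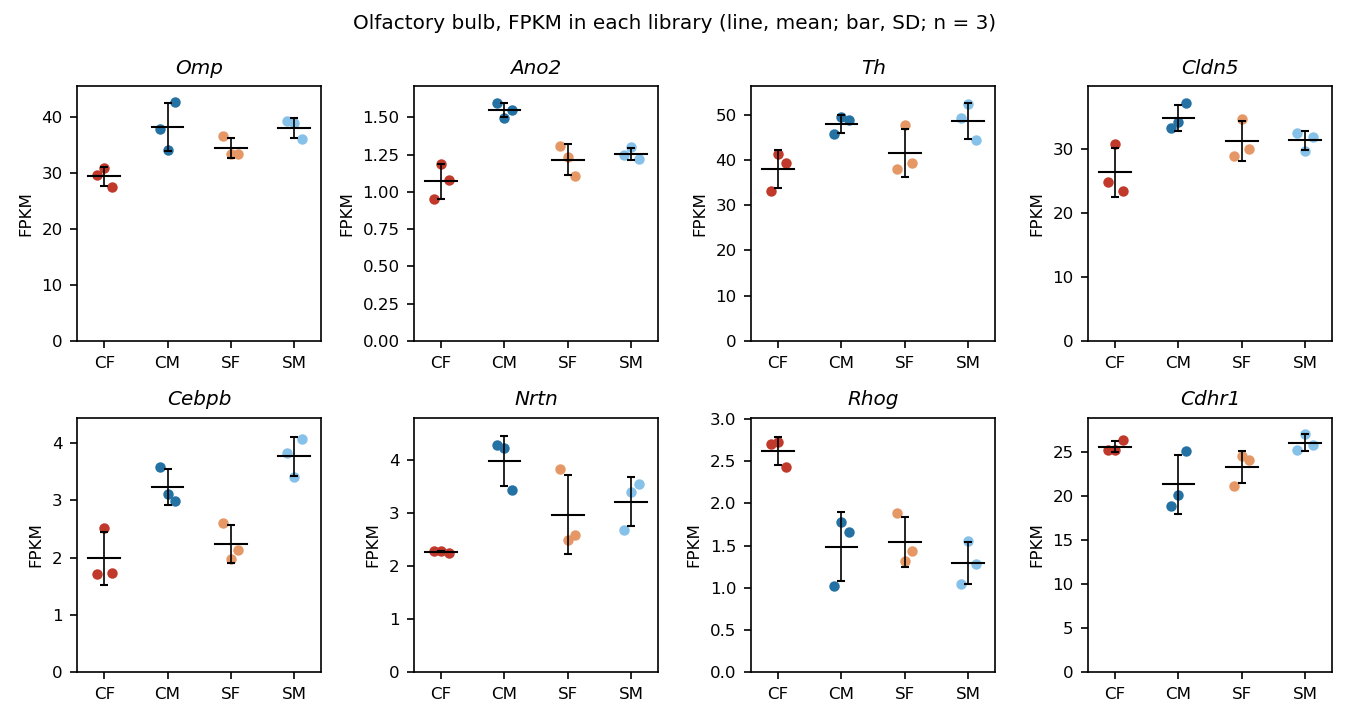
Points give FPKM (y axis, starting at 0) of 8 genes in each of the 12 bulb libraries by group (x axis), with the mean (line) and SD (bar) of 3 libraries. Omp, Ano2, Th, Cldn5 and Nrtn were lower in CF than in CM without overlap, Cebpb was lower in all females than in all males, and Rhog and Cdhr1 were higher in CF than in CM.

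Markers of olfactory sensory neurons had the lowest median difference among the neuronal lists. Of 10 listed, 7 were tested, and all 7 were lower in CF (6 of 7 under each of the 3 other scalings), with a median of -0.21 against -0.03 over all autosomal genes. Under an unadjusted p of 0.05 were 3 of the 7 (42.9%, against 4.41% of all genes), and 0 passed the adjusted threshold in limma. The 3 left out, Cnga4, Gfy and Rtp1, had means of 0.206, 0.126 and 0.206 FPKM. For SF minus SM the sensory neuron list also had a negative median, -0.13 against -0.07 over all autosomal genes. Its median interaction of sex and housing was -0.05. The bulb holds the axons and not the cell bodies of these neurons, and in bulk samples fewer cells or axons of a type and less RNA in each cannot be told apart.

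Omp, the olfactory marker protein of mature sensory neurons, was at 29.8, 30.9 and 27.6 FPKM in CF1 to CF3 and 37.9, 34.2 and 42.7 FPKM in CM1 to CM3. SF libraries had 36.6, 33.5 and 33.5 FPKM and SM libraries 39.4, 39.02 and 36.1 FPKM, so the CF libraries were the 3 lowest of the 12. The difference was -0.37 ± 0.10 (SE, n = 3 per group, limma adjusted p = 0.606), against -0.14 for SF minus SM, and the interaction of sex and housing did not pass in limma (unadjusted p = 0.134, adjusted p = 0.999).

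Ano2, the chloride channel that amplifies the odour response in sensory cilia, was at 0.951, 1.18 and 1.08 FPKM in CF and 1.59, 1.497 and 1.55 FPKM in CM, without overlap. The difference was -0.38 ± 0.10 (limma adjusted p = 0.56) against -0.03 for SF minus SM, and the interaction had an adjusted p of 0.999 in limma (unadjusted p = 0.0245). Rtp2, which helps odorant receptors reach the cell surface, was also lower in CF without overlap, at 0.3704 to 0.513 FPKM against 0.5605 to 0.647 FPKM. Stoml3, a stomatin-like protein of sensory neurons, was at 2.69, 4.47 and 2.49 FPKM in CF and 3.85, 3.95 and 5.59 FPKM in CM, so that CF2 lay inside the CM range. Gng13, S100a5 and Kirrel2, a G-protein subunit, a calcium-binding protein and an adhesion molecule, had differences of -0.03, -0.15 and -0.13 and overlapped.

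The list as a whole did not separate every library. Its median deviation from the 12-library mean was -0.18, 0.03 and -0.26 in CF1 to CF3 and 0.09, -0.01 and 0.22 in CM1 to CM3, so CF2 was above CM2. The median difference was -0.15 without CF3 and -0.29 without CF2, and it kept its sign in all 24 alternative settings (-0.35 to -0.15). In the nose itself CF minus CM was 0.19 ± 0.28 for Omp and 0.09 ± 0.25 for Ano2 (MOE, SE, n = 3 per group). Both values rest on CM3, where Omp was at 638 FPKM against 1001 and 1053 FPKM in CM1 and CM2 of the MOE, and without it they were -0.04 and -0.20. Markers of nasal respiratory and gland cells were low in the bulb: 7 of 10 had a mean below 0.5 FPKM, and their sum was 3.07 to 4.99 FPKM in CF and 1.09 to 11.2 FPKM in CM. Of 1103 odorant receptor genes listed, 5 were tested, Olfr112 to Olfr116, and 0 had an unadjusted p under 0.05 in limma (lowest 0.326).

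Dopaminergic periglomerular markers were split. Of 8 genes 5 were lower in CF, 2 of them under an unadjusted p of 0.05 (25%, against 4.41% of all genes). Th, the rate-limiting enzyme of dopamine synthesis, was at 33.2, 41.4 and 39.4 FPKM in CF1 to CF3 and 45.8, 49.5 and 48.7 FPKM in CM1 to CM3, without overlap. SF libraries had 37.9, 47.7 and 39.2 FPKM and SM libraries 49.2, 52.4 and 44.4 FPKM, with an overlap through SF2. The differences were -0.34 ± 0.12 (limma adjusted p = 0.822) in mixed and -0.23 ± 0.12 (limma adjusted p = 1) in separate housing, and the interaction had an unadjusted p of 0.511 in limma.

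Slc6a3, the dopamine transporter, was at 1.67 to 2.12 FPKM in CF and 2.23 to 2.43 FPKM in CM, and Gch1, which makes the cofactor of Th, was at 0.506 to 0.754 FPKM in CF and 0.848 to 0.9796 FPKM in CM, both lower in CF without overlap. Pax6, a transcription factor that these cells need, had the opposite sign without overlap, at 4.38 to 4.64 FPKM in CF and 3.71 to 4.12 FPKM in CM. Ddc, Slc18a2, Nr4a2 and Qdpr, the last steps and the storage of dopamine, a transcription factor and a cofactor enzyme, overlapped. The median of the list was -0.10, and -0.01 without CF3.

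GABAergic markers of granule and periglomerular cells did not follow Th. Of 17 genes 11 were higher in CF, 1 of them under an unadjusted p of 0.05 (5.88%, against 1.23% of all genes), and the median was 0.06, or 0 without CM1. The number under that p depended on the scaling, with 5 of 17 (29.4%, against 5.23% of all genes) after upper quartile scaling, 6 (35.3%, against 6.86%) after quantile normalization and 4 (23.5%, against 5.15%) after GC and length correction. Dlx5, a homeobox factor of these interneurons, was at 3.95, 3.75 and 2.65 FPKM in CF and 2.698, 2.42 and 1.81 FPKM in CM, with an overlap of CF3 and CM1 (0.49 ± 0.17, limma adjusted p = 0.835). Gad1 was at 164, 183 and 184 FPKM in CF and 160, 171 and 193 FPKM in CM. Gad2, the second enzyme of GABA synthesis, was at 16.5, 16.6 and 17.6 FPKM in CF and 14.97, 13.5 and 15.5 FPKM in CM, higher in CF without overlap. For SF minus SM the median of the list was -0.15.

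Mitral and tufted cell markers were balanced, with 6 of 10 higher in CF and a median of 0.01. Cdhr1, a cadherin-related protein of these cells, was at 25.2, 25.2 and 26.3 FPKM in CF and 18.9, 20.1 and 25.2 FPKM in CM (0.27 ± 0.11, limma adjusted p = 0.865), with CM3 just below the CF libraries. Tbx21 was lower in CF by a narrow margin, at 4.34, 4.69 and 4.65 FPKM against 4.69, 5.13 and 4.82 FPKM, and its difference of -0.09 was 0.01 after GC and length correction. Doc2g, a protein of vesicle release, was at 95.95, 118 and 102 FPKM in CF and 117, 126 and 128 FPKM in CM, and Eomes, a transcription factor of this lineage, at 10.9 to 11.4 FPKM in CF and 10.5 to 13.01 FPKM in CM, and both overlapped. Migrating neuroblast markers had a median of -0.03 over 9 genes, and Sox4, a factor of young neurons, was lower in CF without overlap (11.7, 13.5 and 12.02 FPKM against 15.1, 14.9 and 14.9 FPKM, limma adjusted p = 0.835).

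**Figure D3:**
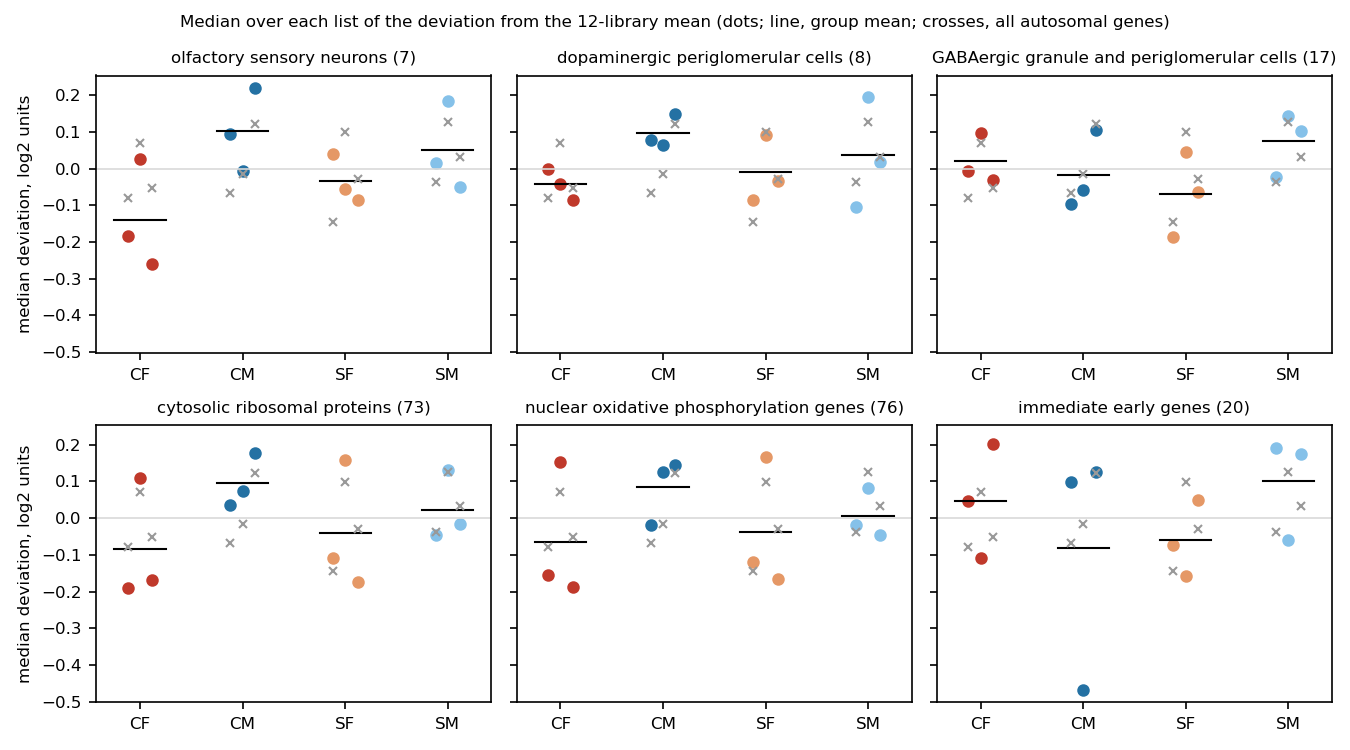
Dots give, for each bulb library by group (x axis), the median over a list of the deviation of each gene from its mean over the 12 libraries (y axis, log2 units), lines give group means, and crosses give the same for all autosomal genes. CF1 and CF3 lay lowest for sensory neuron markers at -0.18 and -0.26 while CF2 did not, CF2 lay among the CM libraries for ribosomal protein and oxidative phosphorylation genes, and CM2 lay lowest for immediate early genes at -0.47.

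Glial lists showed small shifts. Olfactory ensheathing glia had a median of -0.13 with 8 of 10 genes lower in CF (80%, against 59.7% of all genes), 1 of them under an unadjusted p of 0.05 (10%, against 4.41%): Prss56, a secreted protease, at 2.21, 2.62 and 2.67 FPKM in CF and 2.69, 3.15 and 3.59 FPKM in CM. Fabp7, a fatty acid-binding protein abundant in these glia, was at 177, 237 and 209 FPKM in CF and 232, 231 and 268 FPKM in CM, and CF2 lay inside the CM range. Astrocytes (13 genes), oligodendrocytes (14) and their precursors (8) had medians of -0.05, -0.05 and 0.02, with 0 under an unadjusted p of 0.05 in limma. Microglia had a median of -0.02 over 15 genes, and 1 was lower at that p (6.67%, against 4.41% of all genes), Trem2, a lipid receptor (3.09, 4.35 and 3.22 FPKM in CF, 4.55, 4.35 and 4.31 FPKM in CM).

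Vascular genes were divided. Of 14 endothelial markers 3 were lower in CF at an unadjusted p under 0.05 (21.4%, against 4.41% of all genes). Cldn5, the tight junction protein of the blood-brain barrier, was at 24.9, 30.8 and 23.5 FPKM in CF1 to CF3 and 33.4, 34.2 and 37.3 FPKM in CM1 to CM3, without overlap (-0.41 ± 0.11, limma adjusted p = 0.652), while SF minus SM was -0.01 (interaction, unadjusted p = 0.0272 in limma). Egfl7, a secreted vascular factor, was at 6.09 to 6.81 FPKM in CF and 7.24 to 8.37 FPKM in CM, also without overlap, and Emcn, a sialomucin of capillaries and veins, at 1.61, 2.46 and 1.79 FPKM in CF and 2.35, 2.66 and 2.61 FPKM in CM. Pecam1, Flt1, Tek and Cdh5, which mark the same cells, had differences of 0.04, 0.16, 0.06 and 0.20 and overlapped. The endothelial median was -0.05 and changed sign in 4 of 24 settings. Pericyte and smooth muscle markers had a median of -0.18 over 7 genes, with 0 under an unadjusted p of 0.05 in limma.

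Col1a1 and Col1a2, the chains of fibrillar collagen made by meningeal fibroblasts, had the opposite sign. Col1a1 was at 4.72, 2.17 and 3.997 FPKM in CF and 2.57, 1.29 and 1.72 FPKM in CM (0.79 ± 0.24, limma adjusted p = 0.758). Col1a2 was at 5.95, 3.23 and 4.74 FPKM in CF and 3.598, 3.22 and 3.11 FPKM in CM. In both, CF1 and CF3 were above all CM libraries and CF2 was not. Of all 13 fibroblast markers tested 8 were lower in CF (61.5%, against 59.7% of all genes), with a median of -0.09. At an unadjusted p under 0.05, Col1a1 and Col1a2 were higher (15.4%, against 1.23% of all genes) and 1 was lower (7.69%, against 4.41%). The lower one was Slc6a13, a GABA transporter of the meninges (4.21, 5.08 and 5.68 FPKM in CF, 5.77, 5.79 and 6.54 FPKM in CM).

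Blood cell genes varied widely between libraries. S100a8, a calprotectin subunit of neutrophils, was at 5.99, 3.36 and 13.1 FPKM in CF and 2.55, 6.11 and 4.95 FPKM in CM. The group that stood apart was SF at 0.349, 0.431 and 1.45 FPKM, against 10.2, 6.66 and 3.25 FPKM in SM, and the interaction of sex and housing was 3.06 ± 0.68 (limma, unadjusted p = 0.000583, adjusted p = 0.999). The median of the 3 neutrophil genes tested was 0.37, and -0.28 without CF3. Haemoglobin genes cannot be read singly, since near-identical copies share fragments: Hba-a1 was at 25.4, 17.5 and 7.01 FPKM in CF and 0, 0 and 12.7 FPKM in CM, and Hba-a2 at 0, 9.103 and 34.7 FPKM in CF and 27.5, 25.1 and 12.7 FPKM in CM. Of the 5 erythroid genes tested, Hba-a1 and Hbb-b1 were higher in CF at an unadjusted p under 0.05 (40%, against 1.23% of all genes). Both were listed at 0 in some CM libraries. The summed erythroid markers were at 178 to 268 FPKM in CF and 157 to 188 FPKM in CM. Of 9 lymphocyte and plasma cell markers 0 reached the filter.

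**Figure D4:**
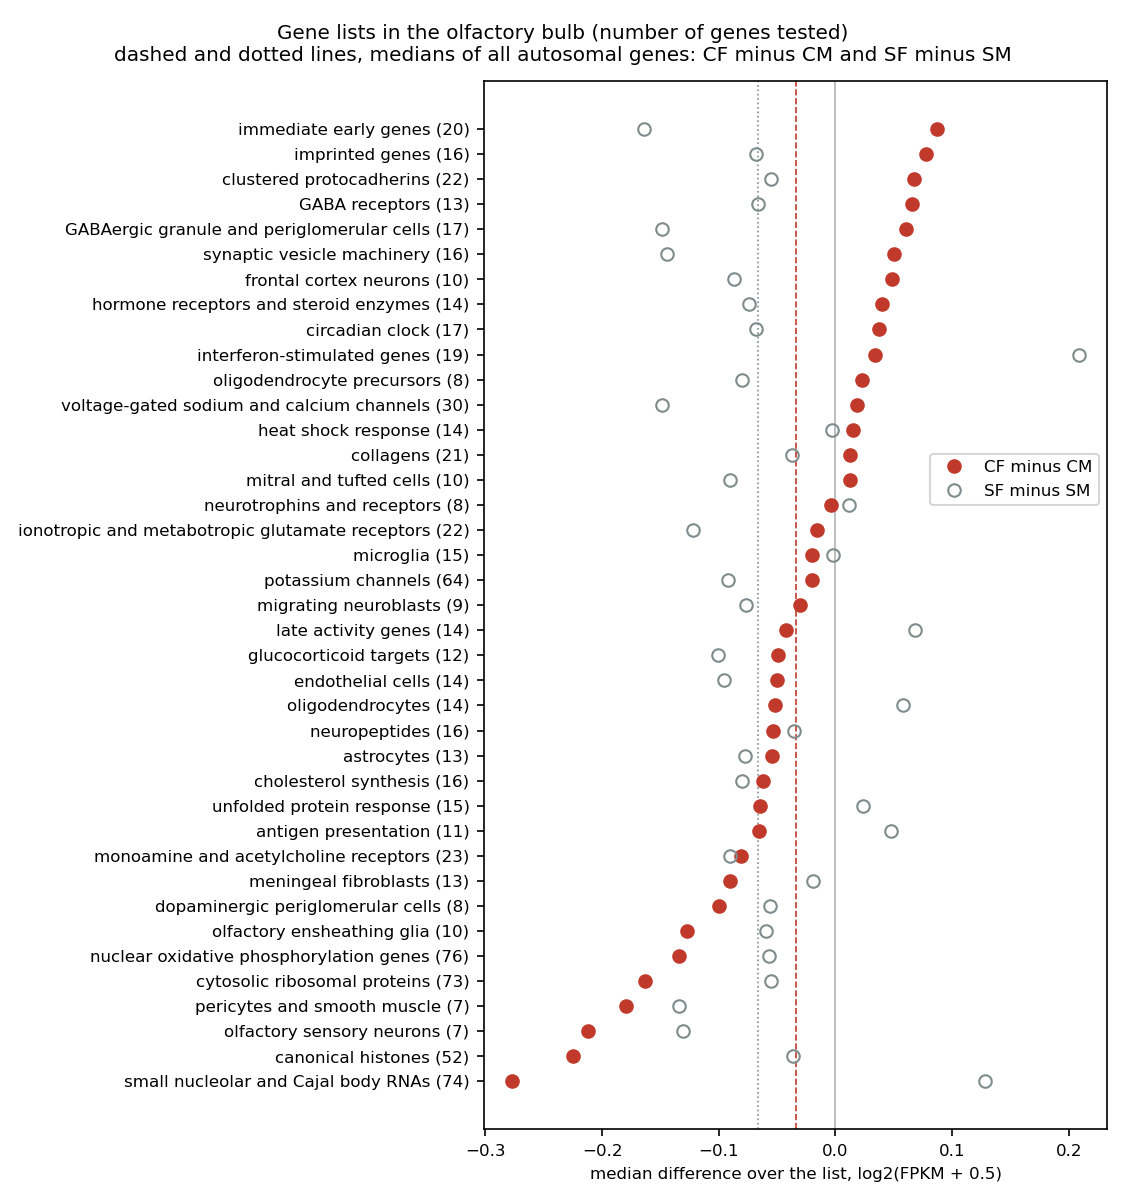
Each row is a gene list with the number of autosomal genes tested (lists of 7 or more), and the x axis gives the median difference over the list in log2(FPKM + 0.5) units for CF minus CM (filled) and SF minus SM (open), with the medians of all autosomal genes as a dashed line (-0.03) and a dotted line (-0.07). Small nucleolar RNAs, histones, sensory neurons and pericytes lay lowest for CF minus CM and immediate early genes highest.

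Cytosolic ribosomal protein genes had more low p-values than their share. Of 73 tested, 57 were lower in CF, with a median of -0.16. Under an unadjusted p of 0.05, 13 were lower (17.8%, against 4.41% of all genes) and 1 was higher (1.37%, against 1.23%). None passed the adjusted threshold in limma. Rpl28 of the large subunit was higher in CF without overlap (14.4, 16.04 and 11.9 FPKM in CF, 9.59, 11.8 and 11.2 FPKM in CM).

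The ribosomal list did not separate the groups library by library. Its median deviation was -0.19, 0.11 and -0.17 in CF1 to CF3 and 0.04, 0.08 and 0.18 in CM1 to CM3, so CF2 lay among the CM libraries. The median difference was -0.13 without CF3 and -0.07 after correction for GC content and length. After that correction 13 were lower in CF at an unadjusted p under 0.05 (17.8%, against 6.4% of all genes) and 5 higher (6.85%, against 5.15%). After upper quartile scaling 18 were lower (24.7%, against 6.6%) and 2 higher (2.74%, against 5.23%). After quantile normalization 17 were lower (23.3%, against 5.92%) and 3 higher (4.11%, against 6.86%). These transcripts are short (median 791 bases) and have processed copies in the genome, such as Rps19-ps3 (1.16, 2.08 and 1.17 FPKM in CF, 2.72, 2.401 and 2.901 FPKM in CM, 6 to 21 fragments), so how fragments were split between copies is uncertain.

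Nuclear genes of oxidative phosphorylation followed the same libraries. Of 76 genes 68 were lower in CF, 6 of them under an unadjusted p of 0.05 (7.89%, against 4.41% of all genes), such as Cox7c of cytochrome oxidase (7.87, 11 and 10.9 FPKM in CF, 12.5, 12.3 and 15.9 FPKM in CM) and Atp5e of ATP synthase (126, 167 and 122 FPKM in CF, 171, 170 and 184 FPKM in CM). The median was -0.13, and -0.03 after correction for GC content and length, with deviations of -0.16, 0.15 and -0.19 in CF1 to CF3 and -0.02, 0.13 and 0.14 in CM1 to CM3. At that p 13 were lower after upper quartile scaling (17.1%, against 6.6% of all genes) and 1 higher (1.32%, against 5.23%). After quantile normalization 7 were lower (9.21%, against 5.92%) and 2 higher (2.63%, against 6.86%). After GC and length correction 8 of 74 were lower (10.8%, against 6.4%) and 1 higher (1.35%, against 5.15%). Canonical histones had a median of -0.22 over 52 genes, with 46 lower in CF (88.5%, against 59.7% of all genes). Under an unadjusted p of 0.05 were 7 of them (13.5%, against 4.41%), such as H2bc11 (2.69, 2.54 and 2.47 FPKM in CF, 4.35, 3.87 and 3.899 FPKM in CM, 9 to 18 fragments). Most histone messages lack a poly(A) tail and are present because the libraries were made from total RNA. Only 1 of the 52 had a GC and length value, so that check is void for them. Without CF3 the histone median was -0.10. After upper quartile scaling 4 histones were lower in CF at an unadjusted p under 0.05 (7.69%, against 6.6% of all genes). After quantile normalization it was 3 (5.77%, against 5.92%).

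Small nucleolar and Cajal body RNAs, which guide the modification of ribosomal and spliceosomal RNA, had a median of -0.28 over 74 genes. For SF minus SM the median was 0.13. At an unadjusted p under 0.05, 10 were lower in CF (13.5%, against 4.41% of all genes) and 2 higher (2.7%, against 1.23%). For CF minus CM the median was -0.10 after quantile normalization, with 5 lower (6.76%, against 5.92% of all genes). It was -0.09 after GC and length correction, with 7 of 73 lower (9.59%, against 6.4%). Snora68 was at 317, 376 and 347 FPKM in CF1 to CF3 and 695, 713 and 824 FPKM in CM1 to CM3 (-1.10 ± 0.21, limma adjusted p = 0.194). SF libraries had 689, 1038 and 668 FPKM and SM libraries 679, 398 and 461 FPKM, and the interaction had an adjusted p of 0.291 in limma. Scarna3a was at 84.98, 145 and 130 FPKM in CF and 346, 311 and 221 FPKM in CM (limma adjusted p = 0.327). When genes listed at 0 in any library were left out of the fit, these were the 2 autosomal genes called between CF and CM. They rest on 5 to 16 and 5.51 to 31.1 fragments per library. Snord85, the largest positive difference, was above 0 only in CF1 and CF3, from 1 fragment each.

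Immediate early genes, which neurons induce within minutes of activity, showed 1 library that stood apart. Of 20 genes 16 were higher in CF, 0 under an unadjusted p of 0.05 in limma, with a median of 0.09. CM2 was the lowest of the 6 libraries for 16 of the 20, and without it the median was -0.13. Egr1, a zinc finger factor, was at 8.34, 6.06 and 10.8 FPKM in CF and 7.42, 4.37 and 6.81 FPKM in CM, and Fos at 13.6, 11.97 and 15.1 FPKM in CF and 13.1, 9.37 and 16.9 FPKM in CM. Atf3 was at 4.43, 0.948 and 2.62 FPKM in CM1 to CM3 against 2.21 to 2.66 FPKM in CF. Late activity genes had a median of -0.04 over 14 genes, with 0 under an unadjusted p of 0.05 in limma.

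Receptor, channel and synaptic lists had medians of -0.08 to 0.07. GABA receptors had a median of 0.07 with 11 of 13 higher in CF, 1 of them under an unadjusted p of 0.05 (7.69%, against 1.23% of all genes) and 3 (23.1%, against 6.86%) after quantile normalization. Synaptic vesicle genes had a median of 0.05 over 16 genes, with 1 higher in CF at that p (6.25%). Under the other scalings more were higher in CF at that p, with 5 (31.2%, against 5.23% of all genes) after upper quartile scaling, 6 (37.5%, against 6.86%) after quantile normalization, where the median was 0.12, and 6 higher (37.5%, against 5.15%) and 2 lower after GC and length correction. Pclo, a scaffold of the active zone, was at 3.57, 3.29 and 3.54 FPKM in CF and 2.51, 2.51 and 2.95 FPKM in CM. It was higher in CF without overlap. Glutamate receptors (22 genes), sodium and calcium channels (30), potassium channels (64) and monoamine and acetylcholine receptors (23) had medians of -0.02, 0.02, -0.02 and -0.08. At an unadjusted p under 0.05, 1 (4.55%), 0 (0%), 3 (4.69%) and 1 (4.35%) were lower in CF, against 4.41% of all genes. At that p 1 potassium channel gene was higher (1.56%, against 1.23%).

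Hormone, stress, peptide and immune lists gave few low p-values. Of 14 hormone receptor and steroid enzyme genes 0 were under an unadjusted p of 0.05 in limma (median 0.04). Of 12 glucocorticoid targets 2 were lower (16.7%, against 4.41% of all genes) and 0 higher in CF at that p. After quantile normalization 2 were lower (16.7%, against 5.92%) and 2 higher (16.7%, against 6.86%). After GC and length correction 2 were lower (16.7%, against 6.4%) and 2 higher (16.7%, against 5.15%). The 2 lower with the deposited values were Fkbp5, a co-chaperone of the glucocorticoid receptor (4.53, 4.898 and 4.099 FPKM in CF, 4.64, 5.56 and 6.55 FPKM in CM, overlapping), and Angptl4, a lipase inhibitor (1.78, 2.21 and 1.62 FPKM in CF, 2.44, 2.95 and 2.83 FPKM in CM, not overlapping). Of 16 neuropeptide genes 1 was lower at that p (6.25%), Nmb, which encodes neuromedin B, at 41.1, 51.6 and 46.4 FPKM in CF and 59.8, 56.9 and 61.2 FPKM in CM, without overlap (-0.36 ± 0.12, limma adjusted p = 0.787), while SF (49.8 to 61.1 FPKM) and SM (50.97 to 62.9 FPKM) overlapped. Of 17 circadian clock genes 10 were higher in CF (median 0.04), 1 of them at that p (5.88%, against 1.23% of all genes). This was Hlf, a clock-controlled transcription factor (3.87 to 4.06 against 2.96 to 3.48 FPKM, without overlap), while Cry1, a repressor of the clock, was lower in CF without overlap (4.24 to 4.84 against 5.07 to 5.63 FPKM). Of 11 antigen presentation genes 8 were lower in CF (72.7%, against 59.7% of all genes), with a median of -0.07. At that p 1 was higher (9.09%, against 1.23%), B2m, the invariant chain of MHC class I (47.6 to 58.6 against 37.7 to 45.1 FPKM, without overlap). Interferon-stimulated (19), heat shock (14) and unfolded protein response genes (15) had medians of 0.03, 0.02 and -0.06, with 0 under an unadjusted p of 0.05 in limma.

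By smallest p among non-overlapping genes with a mean of 1 FPKM or more, above 0 in all 12 libraries and leaving out clone names, microRNAs and small nucleolar RNAs, the 12 genes higher in CF were Rhog, Fam122a, Gar1, Atp6v1g2, Mboat7, Mapre2, Arf4, Anp32b, Cnot3, Rnasek, Lst1 and Ubald1, with differences of 0.34 to 0.79 and adjusted p-values of 0.545 to 0.774 in limma. Rhog, a small GTPase of cell shape, was at 2.7, 2.73 and 2.43 FPKM in CF1 to CF3 and 1.02, 1.78 and 1.66 FPKM in CM1 to CM3. Gar1, a protein of small nucleolar ribonucleoproteins, was at 2.895, 1.72 and 1.59 FPKM in CF and 1.13, 1.03 and 1.28 FPKM in CM. Arf4, a GTPase of vesicle traffic, was at 9.11, 8.98 and 10.4 FPKM in CF and 6.05, 5.91 and 8.12 FPKM in CM. Lst1, an immune cell gene, rests on 1.99 to 13 fragments.

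Genes lower in CF by the same rule included Nrtn, Rps19-ps3, Lrrc73, Bcl7c, Cebpb, Malsu1, Ctu2, Miip, Bok, Mfsd4b4 and Naprt, with differences of -0.72 to -0.43 and adjusted p-values of 0.351 to 0.545 in limma. Nrtn, the trophic factor neurturin of the GDNF family, was at 2.28, 2.29 and 2.26 FPKM in CF and 4.28, 4.23 and 3.43 FPKM in CM (-0.69 ± 0.14), from 11.9 to 31.9 fragments per library. Its transcript is 72.8% G and C, and its corrected difference was -0.32. Bok, a member of the BCL2 family of cell death regulators, was at 6.15, 10.5 and 7.76 FPKM in CF and 12.2, 12.6 and 12.8 FPKM in CM. Naprt, an enzyme of NAD synthesis from nicotinic acid, was at 1.06, 1.32 and 1.22 FPKM in CF and 2.11, 1.96 and 1.83 FPKM in CM. Malsu1 and Ctu2, which act in mitochondrial ribosome assembly and transfer RNA modification, had differences of -0.53 and -0.55.

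Transcript length and GC content moved with the difference between CF and CM. Genes lower in CF at an unadjusted p under 0.05 had a median transcript of 1875 bases with 56.5% G and C, against 2921 bases and 50.5% over all genes tested, and genes higher in CF had 2973 bases and 50.1%. Over 5 bins of equal size, from the shortest to the longest transcripts, the median difference was -0.10, -0.07, -0.04, -0.01 and 0.03, and 8.9% of the shortest and 0.621% of the longest were lower in CF at that p. From the lowest to the highest GC content it was 0.02, -0.01, -0.04, -0.06 and -0.10. SF minus SM ran from -0.04 to -0.08 over the bins of length, the opposite course, and from -0.05 to -0.09 over those of GC content. Without CF3, CF minus CM still ran from -0.06 to 0.04 over the bins of length. Ribosomal protein, oxidative phosphorylation and small nucleolar RNA genes have median lengths of 791, 757 and 129 bases, and the part of length and GC content in their differences was not tested beyond the corrected values.

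**Figure D5:**
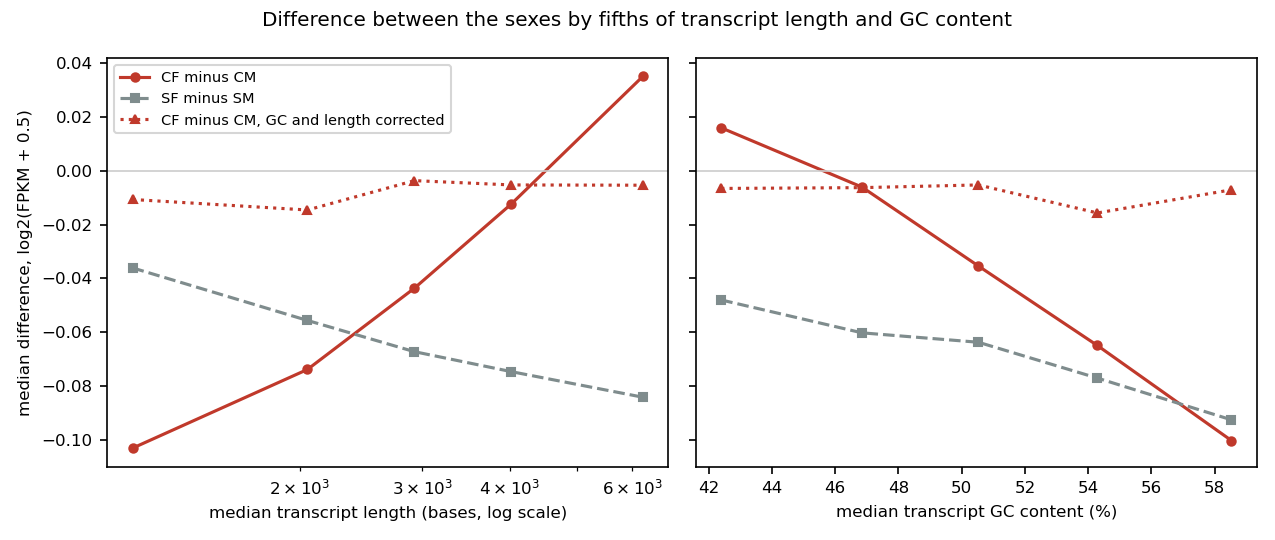
Points give the median difference over each of 5 equal bins of the autosomal genes tested (y axis, log2(FPKM + 0.5) units) against the median transcript length (left, log axis) or GC content (right) of the bin, for CF minus CM, SF minus SM and CF minus CM after correction. CF minus CM went from -0.10 to 0.03 with length and from 0.02 to -0.10 with GC content, and SF minus SM went down with both.

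The measured sex differences of the 2 housings were hardly correlated. Across the 12324 autosomal genes, CF minus CM and SF minus SM, which share no library, had a Pearson r of 0.027. Differences between so few pools carry much error, and a low r does not show that sex effects differed between the housings. Of the 544 genes lower in CF at an unadjusted p under 0.05, 75.2% were lower in SF than in SM, the share of all genes (75.2%), and of the 152 higher in CF 26.3% were higher in SF, against 24.8% of all genes. SF and SM did not overlap for 77 genes higher (0.625%) and 981 lower (7.96%) in SF. All 6 female libraries were below all 6 male libraries for 36 genes (0.292%) and above for 1 (0.00811%). That 1 was Tkfc, a kinase of sugar metabolism, at 0.589 to 0.656 FPKM in females and 0.311 to 0.533 FPKM in males. Besides Cebpb the 36 held Grin2c, an NMDA receptor subunit (5.51 to 6.33 against 6.56 to 7.86 FPKM), Scx, a tendon transcription factor (0.804 to 1.301 against 1.44 to 1.88 FPKM), and Lmna, which encodes lamins A and C (8.38 to 10.8 against 10.8 to 11.99 FPKM). Transcripts of these 3 are 62.1%, 63.6% and 60.7% G and C. After GC and length correction their CF minus CM differences were -0.13, -0.11 and -0.15 in place of -0.22, -0.30 and -0.26. That of Tkfc was 0.33 in place of 0.26. Scx rests on 9.59 to 31 and Tkfc on 7 to 26.9 fragments per library. Tkfc, Scx and Lmna were named after their values had been seen, and of the 36 only Cebpb was called in limma.

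The test of the difference between the housings called 1 autosomal gene (0.00811%), Mir6516 (limma, adjusted p = 0.000387), and had 507 (4.11%) under an unadjusted p of 0.05, 358 with a more positive (2.9%) and 149 with a more negative (1.21%) female minus male difference in mixed housing. By the same limits on level and names, Rnasek, Tox3 and S100a8 had the smallest p. Rnasek, a protein associated with the vacuolar proton pump, was at 27.02, 28.98 and 26.03 FPKM in CF and 19.7, 19.98 and 25.3 FPKM in CM, but at 20.9, 22.5 and 23.97 FPKM in SF and 30.7, 31.4 and 32.8 FPKM in SM. It was higher in females in mixed housing and lower in separate housing, without overlap in either (interaction 0.82 ± 0.15, limma adjusted p = 0.431). Tox3, a transcription cofactor, had the same form, at 1.33, 1.39 and 1.19 FPKM in CF, 1.03, 0.8904 and 1.01 FPKM in CM, 0.962, 0.885 and 0.991 FPKM in SF and 1.28, 1.31 and 1.42 FPKM in SM (limma adjusted p = 0.999).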

How the data were processed

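RNA-seq was measured in 36 libraries, and the 12 bulb libraries were used here. Per the labels and the methods, total RNA was depleted of ribosomal RNA (TruSeq Stranded), sequenced as pairs of 50 bases on 2 lanes, aligned by the authors with TopHat2 2.1.0 to mm9 and quantified with Cufflinks 2.2.1.0. The deposited FPKM values, 1 table per library, were used without rescaling. The labels and the methods give different numbers of mice per pool. The strand setting is not given in the sources used here. Cuffdiff was used by the authors and needs alignments, so it was not repeated.

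RefSeq accessions were mapped to symbols (99.73% of entries) and FPKM summed by gene. The fragments behind an FPKM were estimated from the distance to its upper 95% limit, and cover counting error only. Tests used limma 3.58.1 in R 4.3.3 (lmFit, then eBayes with trend) on log2(FPKM + 0.5). All 4 groups of the 12 libraries entered 1 fit, of genes whose mean reached 0.5 FPKM, with Benjamini-Hochberg adjustment over every gene in it. p-values measure the spread between pooled libraries. Transcript length and GC content came from GENCODE M21 for 12067 of 12324 autosomal genes. Tables and figures were made with Python 3.11.15, pandas 2.3.3 and matplotlib 3.10.9.

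Named genes were those called, the 12 in each direction with the smallest p among non-overlapping genes at 1 FPKM or more and above 0 throughout, leaving out clone or predicted names and Mir, Snor and Scarna genes, the top 3 by interaction under the same limits, and in each list the first 2 and the smallest p in each direction, and not all of these are printed (some items are not reported here). Other list members and overlapping genes were named after their values were seen. The comparison and the lists were chosen with earlier results of these data known. In simulated CF and CM libraries with no change, 0 of 12533 genes were called. These had independent noise per gene and left out genes listed at 0, so shared shifts and genes such as Mir6516 were not covered. The alternatives were pseudocounts of 0.1 and 1, no filter, a mean of at least 2 FPKM, quantile and upper quartile scaling, library weights, a replicate block, the 6 libraries alone, the share of concordant pairs as a covariate, genes listed at 0 left out, each library left out, and, added after seeing the data, a correction of each library by splines (4 df each) of GC content and log2 length.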

Additional observations from a re-analysis of the deposited data

Results flagged for a closer look

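Mir6516 was set aside because its sex difference in mixed housing differed from that in separate housing by a test of the interaction (limma, adjusted p = 0.000387). It was listed at 0 FPKM in CF1, CF2 and CF3, at 86.4 to 166 FPKM in CM, at 43.4 to 69.97 FPKM in SF and at 26.4 to 126 FPKM in SM, and at most 7 fragments per library stood behind these values.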

How the results depend on the processing

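The number of autosomal genes called between CF and CM was 1, and it was 2 with no filter, after quantile normalization, with the replicate number as a block and with genes listed at 0 left out (Scarna3a and Snora68), 5 in the 6 libraries compared alone (the 5 genes listed at 0 in CF) and 657 with library weights. With a library left out it ranged from 1 to 4, with 4 without CF2 and 2 without CM3 or SF2. Between SF and SM the count was 0, and it was 1 with no filter or with concordance as a covariate, 2 in 6 libraries alone or with genes at 0 left out, 1366 with library weights, and 0 to 2 with a library left out (2 without SM1). The interaction called 1, and 2 with genes at 0 left out, 403 with library weights, and 1 to 4 with a library left out (4 without SM1, 3 without CF2 or CM3). The average over the housings called 3, and 1 with no filter, both scalings, the block, the concordance covariate or genes at 0 left out, 1813 with library weights, and 1 to 3 with a library left out (1 without SF3, SM2, SM3, CF1, CF3, CM1, CM2 or CM3). Library weights ran from 0.307 to 6.2, so a few libraries carried those fits, and no call of theirs is used. The cause of these changes was not tested. Between CF and CM libraries with the same number, deviations had r = 0.161, 0.045 and -0.125. So few values cannot decide whether the numbers pair the libraries. With the block 1202 of 12324 autosomal genes were under an unadjusted p of 0.05 between CF and CM in limma, against 696 without it. Between SF and SM it was 853 against 558. With the block Cebpb and Fbxl15 had adjusted p-values of 0.0902 and 0.0661 in limma for the average over the housings. Of 78 genes with printed values, 10 changed the sign of their CF minus CM difference under an alternative, and 0 of these 10 were called there. Eomes was at 0.0291 after quantile normalization, 0.0046 after upper quartile scaling, 0.0558 with library weights and 0.0249 after GC and length correction. Gng13 was at 0.0589, 0.0048, 0.0148 and 0.119 after quantile, upper quartile, concordance and GC and length settings. Fabp7 was at 0.0521 after quantile normalization, Tbx21 at 0.0111 after GC and length correction and Tek at -0.0215 with library weights. With a library left out the differences ran from -0.41 to 0.48 for Atf3 (-0.41 without CM2), -0.0412 to 0.0649 for Cuedc2, -0.0802 to 0.0657 for Eomes, -0.14 to 0.27 for Fos (-0.14 without CM2), -0.0361 to 0.0952 for Gad1, -0.22 to 0.14 for Gng13, -0.0433 to 0.146 for Pecam1 and -0.0146 to 0.137 for Tek. At 3 pools per group and few fragments for short or low genes, differences under 0.5 log2 units are often out of reach, and intervals from fragments cover counting error only.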
